A study of Homo sapiens with 4 samples.

Results

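The genes of the mitochondrial ribosome were examined in U937, a human acute myeloid leukemia cell line with monocytic features. Members were the protein-coding genes of the deposited expression table whose symbol in the GENCODE 44 annotation begins with MRPL or MRPS and a digit, matched through the Ensembl identifier. The table listed 17656 genes and held all 78 annotated genes of this kind. RNA had been sequenced from 4 libraries, 2 labelled NC, which the labels describe as untreated, and 2 labelled sh-ZNF217, described as carrying a ZNF217 knockdown. ZNF217 is a zinc finger transcription factor found in corepressor complexes, and the study asked which genes respond to its loss. Both groups were otherwise the same line, and no further allele or agent was named for either. Every column carries the mark D4, whose meaning the labels do not give. The sh-ZNF217 columns carry the mark S1, while the study describes a pair of ZNF217 hairpins in a puromycin lentiviral vector and elsewhere a CRISPR/Cas9 knockout for its RNA sequencing, so the construct behind these libraries could not be settled. Whether the libraries of a group are separate cultures is not stated by the labels, and p-values measure only the spread between these libraries, which may be technical.

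Values are TPM, a gene's share of a library's transcripts after division by transcript length, on one scale for all libraries. The measure does not retain depth, which stayed unknown, and counting error has no interval here. The transcript of ZNF217 itself stood at 36.1 and 36.7 TPM in NC and at 35.8 and 35.0 TPM in the sh-ZNF217-labelled libraries. Its log2 fold change was -0.04 by limma (SE 0.07, adjusted p = 0.74). The target transcript thus did not show the knockdown that the labels describe, and all directions below were taken from those labels. By qRT-PCR, the study reports lower ZNF217 mRNA with both of its hairpins in AML cell lines. Of 9 monocytic and myeloid marker genes tested, 6 were higher and ELANE, a neutrophil granule protease, was lower at an adjusted p below 0.05 (limma), while MPO, a further granule gene, stayed at 0.0854 to 0.513 TPM. Without either sh-ZNF217-labelled library, 1 or 2 of the 6 passed and ELANE did not. The T cell markers CD3D, CD3E and CD8A, the B cell marker MS4A1 and the red cell genes HBA1 and HBB were not listed, and neither was any of 4 epithelial and fibroblast markers. The listed T and NK markers, CD2 and NCAM1, summed to 26.7 and 32.2 TPM in NC against 37.3 and 42.0 TPM, with CD2 called higher, a call kept only without NC replicate 2. The 3 listed B cell markers summed to 5.51 and 10.7 TPM against 4.45 and 7.06 TPM, with PAX5 called lower, a call lost when any 1 library was left out, and PPBP, the platelet gene listed, lay between 1.07 and 2.93 TPM. The part of such shifts in the results below was not tested, and in bulk RNA fewer cells of a type and less RNA per cell cannot be told apart.

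Mitochondria keep their own ribosome, which translates the few proteins encoded on mitochondrial DNA, all of them subunits of the respiratory chain and ATP synthase. Its rRNAs come from mitochondrial DNA, while its proteins are encoded in the nucleus, made in the cytosol and imported. Some of these proteins descend from bacterial ribosomal proteins and others are found only in mitochondria, and leukemic cells of the myeloid type are known to depend on mitochondrial translation. By the structural nomenclature, 51 members belong to the large subunit and 26 to the small subunit. MRPS30 and MRPS18A count among the former despite their names, and MRPS36 was put in neither, since its product is a component of the alpha-ketoglutarate dehydrogenase complex.

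Promoters of 4 members are shown because each holds a match to some of the motifs searched below, none of them to GCGCATGCG (NRF1). The 4 represent members that changed (MRPS18B and MRPL36) and a member that passed the test without reaching the fold minimum (MRPL16). They also include a member that shares its promoter with another member (MRPL46, beside MRPS11). Each sequence runs 5′ to 3′ on the strand of its gene from 250 bases before to 50 bases after the RefSeq start in GRCh38.p14. They lie at chr6:30617590-30617889 on the plus strand for MRPS18B, and on the minus strand at chr11:59810729-59811028 for MRPL16, chr5:1799788-1800087 for MRPL36 and chr15:88467339-88467638 for MRPL46. Capitals mark a match to ATGGCGGC (the YY1 motif) in MRPS18B and MRPL46, to CCGGAAGT (ETS factors) read on the other strand in MRPL16, and to CACGTG (an E-box) and the reverse of ATGGCGGC in MRPL36. The RefSeq start of MRPL36 lies 1529 bases from the outermost start in GENCODE, against 0 bases for MRPS18B and MRPL16 and 2 bases for MRPL46.
MRPS18B: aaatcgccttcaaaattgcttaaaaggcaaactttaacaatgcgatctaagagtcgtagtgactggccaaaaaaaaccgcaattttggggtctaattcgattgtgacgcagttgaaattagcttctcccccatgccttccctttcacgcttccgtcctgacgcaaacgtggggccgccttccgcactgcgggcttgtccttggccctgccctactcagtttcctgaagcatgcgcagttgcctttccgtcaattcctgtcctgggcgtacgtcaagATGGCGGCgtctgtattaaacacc
MRPL16: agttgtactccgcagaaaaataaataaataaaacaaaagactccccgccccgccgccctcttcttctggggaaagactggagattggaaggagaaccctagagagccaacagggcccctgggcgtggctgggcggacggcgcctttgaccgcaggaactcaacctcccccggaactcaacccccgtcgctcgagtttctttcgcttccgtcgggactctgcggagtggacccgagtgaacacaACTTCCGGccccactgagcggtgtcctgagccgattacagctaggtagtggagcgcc
MRPL36: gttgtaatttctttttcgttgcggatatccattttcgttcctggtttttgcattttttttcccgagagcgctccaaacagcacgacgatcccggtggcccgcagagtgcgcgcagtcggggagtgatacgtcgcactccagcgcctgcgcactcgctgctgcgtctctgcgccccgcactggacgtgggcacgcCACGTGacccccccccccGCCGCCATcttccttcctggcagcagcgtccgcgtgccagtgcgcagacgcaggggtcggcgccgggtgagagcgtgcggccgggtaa
MRPL46: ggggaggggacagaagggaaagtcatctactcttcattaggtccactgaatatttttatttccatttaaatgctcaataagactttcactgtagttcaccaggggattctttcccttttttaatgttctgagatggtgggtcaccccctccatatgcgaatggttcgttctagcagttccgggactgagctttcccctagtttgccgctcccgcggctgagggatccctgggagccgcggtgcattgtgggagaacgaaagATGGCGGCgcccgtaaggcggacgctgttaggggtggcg

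All 78 members were transcribed in all 4 libraries, and all 78 were among the 14582 genes tested. The median member had a mean of 73.0 TPM over the 4 libraries. MRPL37, a large subunit protein specific to mitochondria, had the highest level at 309 ± 7.12 TPM in NC (SD, n = 2) and kept that rank in the sh-ZNF217-labelled libraries at 257 ± 6.46 TPM. MRPL18 (230 ± 1.04 TPM), MRPL51 (213 ± 26.6 TPM) and MRPL12 (203 ± 12.8 TPM) followed in NC. MRPL18 lay above MRPL12 in both NC libraries, while the place of MRPL51 among these 3 did not hold up against the spread between libraries. The lowest levels belonged to MRPS18B (17.4 ± 0.79 TPM), MRPL45 (18.2 ± 1.07 TPM), MRPS23 (20.5 ± 2.48 TPM) and MRPL50 (22.7 ± 1.6 TPM), of which neighbours in rank again lay within each other's spread.

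**Figure D1:**
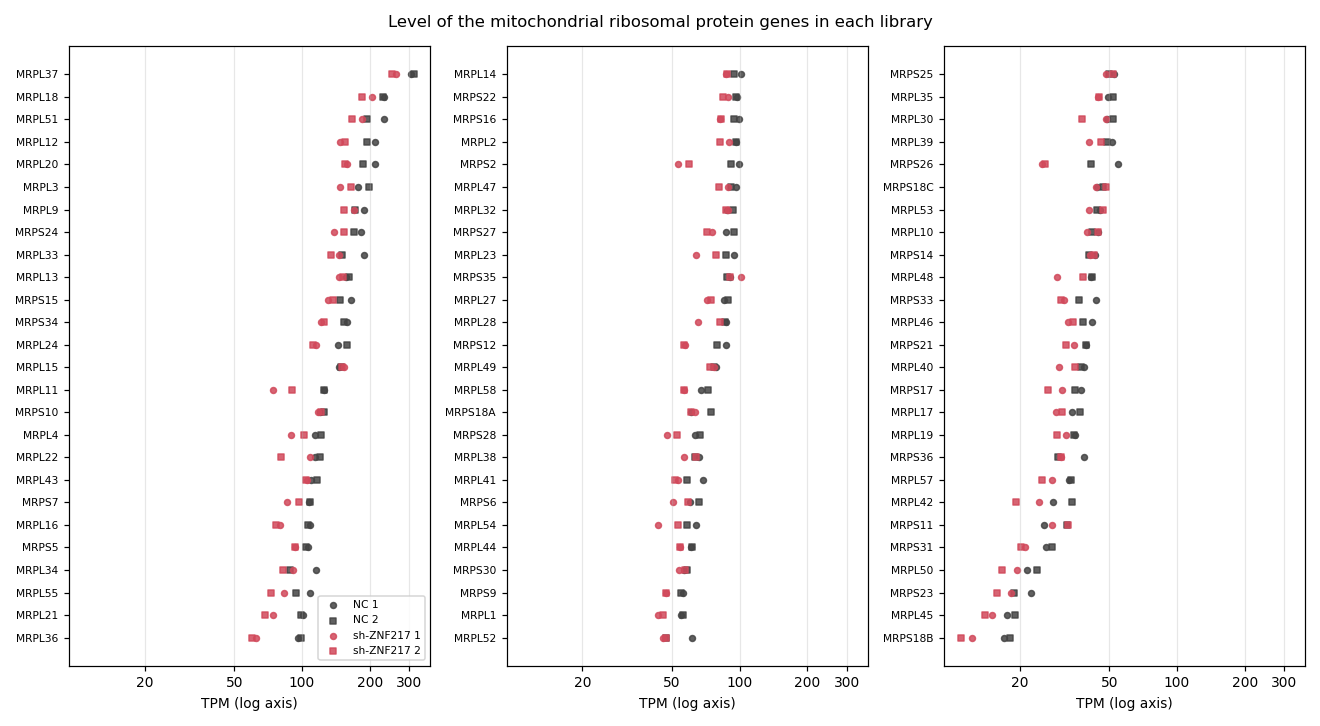
TPM of the 78 members on a log axis, 1 row per gene in order of the NC mean and 26 genes per panel, with NC libraries in grey and sh-ZNF217-labelled libraries in red (replicate 1 as circles, replicate 2 as squares). Red points lie to the left of both grey points in 62 genes, and levels run from MRPS18B at 17.4 TPM to MRPL37 at 309 TPM in the NC means.

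The members were lower as a group in the sh-ZNF217-labelled libraries. Summed over the 78 genes, the level was 7026 and 6838 TPM in NC and 5809 and 5818 TPM in the sh-ZNF217-labelled libraries. The sum thus dropped by 16.1%, with no overlap of the groups, from 0.703% and 0.684% of all TPM to 0.582% in both. The log2 fold change of TPM + 1 was below 0 in 74 of 78 members (94.9%), against 47.5% of all genes tested. Its median over the members was -0.25 (quartiles -0.32 and -0.16), while the median over all genes tested was 0.02. Both sh-ZNF217-labelled libraries lay below both NC libraries in 62 members (79.5%), where 28.6% of all genes did so. In 15 members the groups overlapped. MRPL15, a protein of the large subunit core, was the 1 member with both libraries above NC (1.28%, against 33.5% of all genes).

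Single members were tested with limma across all genes, and are called changed at a Benjamini-Hochberg adjusted p below 0.05 with a log2 fold change beyond 0.5 in size. By this rule 6 members changed, all lower (7.69%), against 2.46% of all genes tested that changed lower and 6.26% that changed higher. At the adjusted p alone, 19 members were lower (24.4%), against 7.11% of all genes. None of the 78 was higher in this limma test, against 9.77% of all genes, and none at an unadjusted p below 0.05 either. MRPL15, MRPS11, MRPS18C and MRPS35 were the only ones with a positive value. Among the 6769 protein-coding genes within the members' range of levels, 8.79% changed (2.57% lower and 6.22% higher), 22.6% passed the adjusted p (10.0% lower and 12.6% higher), and 49.8% were below 0. In 34.0% of these genes both sh-ZNF217-labelled libraries lay below NC and in 35.1% above. The counts depended on single libraries. Without replicate 1 of sh-ZNF217, 4 members changed and 5 passed lower, without its replicate 2, 3 and 3, and without NC replicate 1, 4 and 9. In these 3 fits the shares of all genes were lower too, with 0.994%, 0.885% and 1.64% changed lower and 1.14%, 1.07% and 3.19% passing lower. The number of members below 0 ranged from 69 to 76 in these fits and the fit without NC replicate 2. With plain instead of robust, trended empirical Bayes moderation, 2 members passed, MRPS2 and MRPL36, against 1.12% of all genes passing lower.

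**Figure D2:**
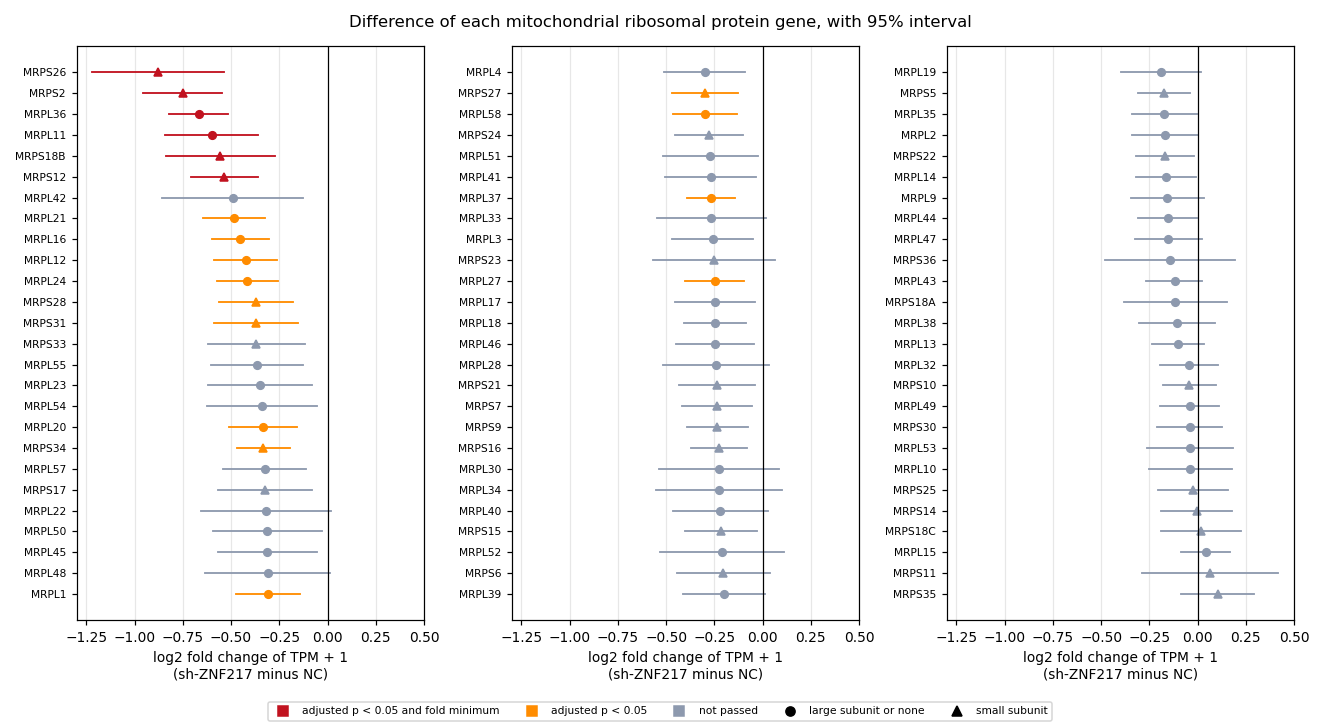
Log2 fold change of TPM + 1 (sh-ZNF217-labelled minus NC) with its 95% interval for the 78 members, sorted and split over 3 panels, with triangles for the small subunit. The 6 red genes at the top left changed, the other 13 coloured genes passed the adjusted p alone, and the 4 values above 0 at the bottom right have intervals that include 0.

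Of the 6 changed members, 4 code for small subunit proteins. MRPS26, a mitochondria-specific protein (gene at chr20:3046052-3048250, plus strand, hg38), had 54.5 and 41.3 TPM in NC and 25 and 25.8 TPM in the sh-ZNF217-labelled libraries. The NC libraries differed from each other, yet both were well above the other group. The log2 fold change was -0.88 (SE 0.14, adjusted p = 0.0157), the lowest value of any member, and it no longer passed without either sh-ZNF217-labelled library (adjusted p = 0.0821 and 0.0736). MRPS2, the counterpart of bacterial ribosomal protein S2 (chr9:135499984-135504673, plus strand), had 99.1 and 92.0 TPM against 53.2 and 59.7 TPM. All values of one group were far from those of the other. Its log2 fold change was -0.75 (SE 0.08, adjusted p = 0.00686) and stayed called in each of 14 alternative fits, although its exons overlap those of PIERCE1 on the other strand. MRPS12, which sits at the decoding centre where codon and anticodon are matched (chr19:38930944-38933168, plus strand), had 86.7 and 79.3 TPM against 57.2 and 56.7 TPM, a log2 fold change of -0.53 (SE 0.07, adjusted p = 0.0105). MRPS18B (chr6:30617840-30626395, plus strand), the member of lowest level, had 16.9 and 18.0 TPM against 12.2 and 10.9 TPM, a log2 fold change of -0.56 (SE 0.11, adjusted p = 0.0297). MRPS18B lost its call when any 1 of the 4 libraries was left out (adjusted p from 0.0738 to 0.109), and MRPS12 lost its call without either sh-ZNF217-labelled library (0.0576 and 0.0590).

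The other 2 changed members belong to the large subunit. MRPL36, a small zinc-binding protein with a bacterial counterpart (chr5:1798385-1801366, minus strand), had 96.3 and 99.4 TPM in NC and 62.4 and 60.0 TPM in the sh-ZNF217-labelled libraries. Libraries of a group were close to each other and the groups lay far apart. Its log2 fold change was -0.67 (SE 0.06, adjusted p = 0.00487), the smallest adjusted p of any member, and it too stayed called in each of 14 alternative fits. MRPL11, at the base of the stalk that receives translation factors (chr11:66435075-66466738, minus strand), had 125 TPM in both NC libraries and 74.4 and 90.0 TPM in the other group. Both values were below NC, but they differed from each other. The log2 fold change was -0.60 (SE 0.10, adjusted p = 0.0165), and exons of PELI3 overlap the gene on the other strand. It was short of the fold minimum at -0.47 without sh-ZNF217 replicate 1.

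Of the 13 members that passed the adjusted p without the fold minimum, 9 belong to the large subunit. MRPL21 stood at 101 and 99.2 TPM in NC and at 74.0 and 68.7 TPM in the sh-ZNF217-labelled libraries (log2 fold change -0.49, adjusted p = 0.0107). MRPL16, which lies near the peptidyl transferase centre where peptide bonds form, stood at 109 and 106 TPM against 80.1 and 76.5 TPM (-0.45, adjusted p = 0.0105). MRPL12, the stalk protein that also has been described to bind mitochondrial RNA polymerase, stood at 212 and 194 TPM against 147 and 155 TPM (-0.42, adjusted p = 0.0155). In none of these genes did the groups overlap. MRPL24, beside the exit of the peptide tunnel, had 145 and 158 TPM against 115 and 112 TPM (-0.42, adjusted p = 0.0147). MRPL20 had 211 and 187 TPM against 158 and 156 TPM (-0.34, adjusted p = 0.0319), and its exons overlap MRPL20-AS1 on the other strand. MRPL37, the most abundant member, had 304 and 314 TPM against 261 and 252 TPM (-0.27, adjusted p = 0.0251). Its call was lost when any 1 library was left out, with adjusted p from 0.0538 to 0.105. The remaining ones of the large subunit were MRPL1, MRPL27 and MRPL58, a release factor built into the ribosome, with log2 fold changes from -0.31 to -0.25. In the small subunit, MRPS34 had 158 and 153 TPM against 121 and 125 TPM (-0.33, adjusted p = 0.0176), and MRPS27, MRPS28 and MRPS31 lay between -0.37 and -0.30. MRPL1, MRPL27, MRPL58, MRPS27, MRPS28 and MRPS31 each lost the call when any 1 library was left out, with adjusted p from 0.0593 to 0.165. Without either sh-ZNF217-labelled library the adjusted p of MRPL12, MRPL16, MRPL20, MRPL24 and MRPS34 lay between 0.0503 and 0.12. MRPL21 missed the threshold without sh-ZNF217 replicate 2 (0.0566), and MRPL20 (0.0869) and MRPS34 (0.0613) also without NC replicate 1.

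Lower values were found in both subunits. Over all genes tested, 47.5% were below 0, 7.11% passed lower and 2.46% changed lower. In the large subunit, 50 of 51 members were below 0, 11 passed lower and 2 changed, with a median log2 fold change of -0.25. In the small subunit, 23 of 26 were below 0, 8 passed lower and 4 changed, with a median of -0.24. Members with a bacterial counterpart (46, of which 12 passed lower) and mitochondria-specific members (31, of which 7 passed lower) had medians of -0.24 and -0.27. This split follows the structural names, by which MRPS18A and MRPS18B, paralogs of bacterial S18, count as mitochondria-specific. Within the large subunit, the 5 stalk proteins had a median of -0.34, the 7 at the exit tunnel -0.31 and the 8 of the central protuberance, the lobe at the top of the subunit, -0.25. The stalk proteins were themselves uneven, from MRPL11 at -0.60 to MRPL10 at -0.04. Differences between these groups of members were not tested. Without sh-ZNF217 replicate 1 or replicate 2, 4 and 2 members passed lower in the large subunit and 1 and 1 in the small, with medians between -0.25 and -0.22, and without NC replicate 1 the counts were 6 and 3. The mitochondria-specific members passing lower numbered 0 without either sh-ZNF217-labelled library and 1 without NC replicate 1, and those with a bacterial counterpart 5, 3 and 8. The share of all genes passing lower fell as well without either sh-ZNF217-labelled library or without NC replicate 1, as given above. The stalk median moved to -0.19 without sh-ZNF217 replicate 1 and the exit tunnel median to -0.21.

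The 3 paralogs of bacterial S18 did not share 1 value. MRPS18B, of the small subunit, fell as given above. MRPS18A, placed in the large subunit, had 60.8 and 74.7 TPM against 63.5 and 60.8 TPM, with overlapping groups and a log2 fold change of -0.12 (SE 0.11, adjusted p = 0.50), which turned to 0.03 without NC replicate 2. MRPS18C, named bS18m after the bacterial protein, had 44 and 46.7 TPM against 43.5 and 48.5 TPM. Its log2 fold change of 0.02 (SE 0.08, adjusted p = 0.90) had a 95% interval from -0.19 to 0.22 and turned negative under median-of-ratios scaling (-0.01). At the upper end stood MRPS35, of the small subunit, with 90.7 and 87.9 TPM against 102 and 90.6 TPM (log2 fold change 0.10, SE 0.08, adjusted p = 0.386). MRPS36, the dehydrogenase component, had 38.7 and 29.4 TPM against 30.6 and 30.3 TPM (-0.14, adjusted p = 0.508), which became 0.05 when NC replicate 1 was dropped and -0.34 when replicate 2 was. In all, 11 members changed sign under at least 1 of the 14 alternatives, among them MRPS18A, MRPS18C, MRPS36, MRPS11 and MRPL10, and none of the 11 passed in any fit.

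**Figure D3:**
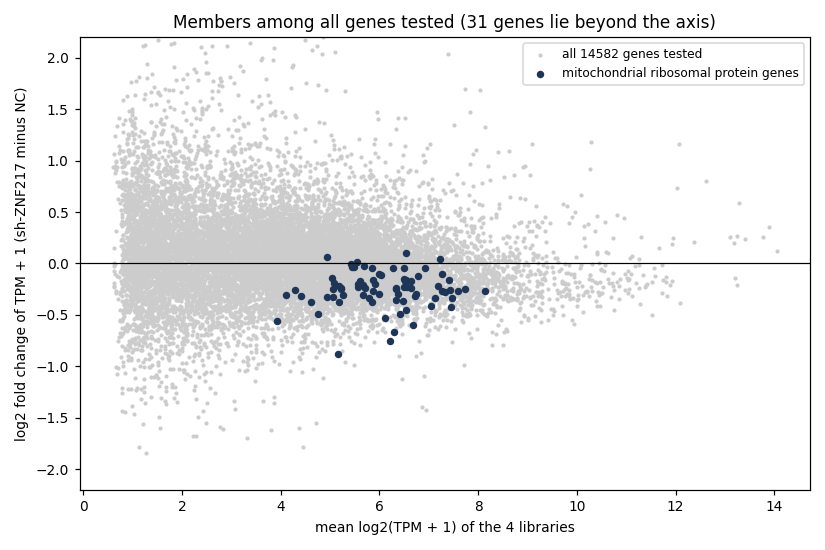
Each tested gene by its mean log2(TPM + 1) over the 4 libraries and its log2 fold change of TPM + 1 (sh-ZNF217-labelled minus NC), with the 78 members in dark blue over all 14582 genes in grey (31 genes lie beyond the axis, none of them a member). The members form a band below 0, between -0.88 and 0.10, across their range of levels.

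The spread between replicates was smaller than the distance between groups. The median absolute log2 difference over members was 0.0823 between the NC libraries and 0.1 between those labelled sh-ZNF217, against 0.207 to 0.263 in the 4 pairs of libraries across the groups. The corresponding medians over all genes tested were 0.122 and 0.128 within groups and 0.243 to 0.253 across them. Each of the 4 pairs across groups gave a negative median for the members, from -0.26 to -0.21, and 68 to 73 members below 0.

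Features of the genes were set beside their differences as a description. Across the 78 members, which share the same 4 libraries, the log2 fold change went with exonic GC content (Pearson r = -0.393, Spearman rho = -0.344) and hardly with level in NC (r = -0.0179, rho = -0.0584), while length gave r = 0.179 and rho = 0.192. The 39 members above the median GC content of 47.9% had a median log2 fold change of -0.27 with 13 passing lower, and the 39 others -0.23 with 6 passing. The GC relation was not limited to members, with r = -0.232 over the 6769 protein-coding genes of like level. After a correction for GC content and length over all genes, 72 members were below 0 with a median of -0.24 and 24 passed lower. Of these 24, 17 were among the 19 that passed lower without the correction. The share of all genes tested that passed lower was 7.28% with the correction and 7.11% without it. MRPL12 moved from -0.42 to -0.22 and still passed (adjusted p = 0.0329). MRPS34 (-0.13, adjusted p = 0.123) and MRPL58 (-0.26, adjusted p = 0.0551) missed the threshold. MRPS12 was no longer among the 6 that changed, and MRPL42, a mitochondria-specific protein, was. Exons of another gene overlapped 41 members, 30 of them on the other strand, and no source used here says whether strand was used in counting. The 37 members without overlap had a median of -0.27, and 35 of them were below 0.

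Many of these genes start beside a gene on the other strand. A protein-coding neighbour starting within 1000 bases on the other strand, by GENCODE starts, was found for 27 members, and 25 had a neighbour that was tested. In some pairs the genes overlap at their starts, as for MRPL43 with TWNK, whose exons overlap, and MRPL14 with TMEM63B. Whether reads were shared between such genes was not tested. Of the 23 neighbours that are not members themselves, 12 were below 0 and 11 above, with a median log2 fold change of -0.01, against -0.25 for the members beside them. Of these 23, 3 passed lower and 1 higher, where 7.11% and 9.77% of all genes tested did so. Lower at the adjusted p were TWNK, the mitochondrial DNA helicase (-0.72, adjusted p = 0.0457), TCP1, a subunit of the cytosolic chaperonin (-0.35, adjusted p = 0.012), and NDUFS6, a complex I subunit (-0.40, adjusted p = 0.0295), while TMEM63B was higher (0.41, adjusted p = 0.0435). TMEM63B lost its call when any 1 library was left out, NDUFS6 and TWNK in 3 of 4 such fits (NDUFS6 kept it without NC replicate 2 and TWNK without sh-ZNF217 replicate 1), and TCP1 without either sh-ZNF217-labelled library (highest adjusted p 0.0678). NDUFS6 starts 41 bases from the outermost GENCODE start of MRPL36, not from the RefSeq start of the window printed above. NDUFS6 had 243 and 209 TPM in NC against 169 and 173 TPM. SARS2, the mitochondrial seryl-tRNA synthetase, starts 181 bases from MRPS12 and did not pass (-0.38, adjusted p = 0.107). IGHMBP2, 28 bases from MRPL21, had 15.2 and 15.6 TPM against 15.5 and 16.0 TPM, a log2 fold change of 0.03 beside -0.49 for MRPL21. MRPS11 and MRPL46 start 63 bases apart, in the window printed above for MRPL46, with log2 fold changes of 0.06 (SE 0.14) and -0.24 (SE 0.08), neither of which passed. The side of 0 on which MRPS11 fell rested on single libraries. Dropping NC replicate 1 gave -0.10, dropping NC replicate 2 gave 0.23, and the fit lacking sh-ZNF217 replicate 2 gave -0.05.

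**Figure D4:**
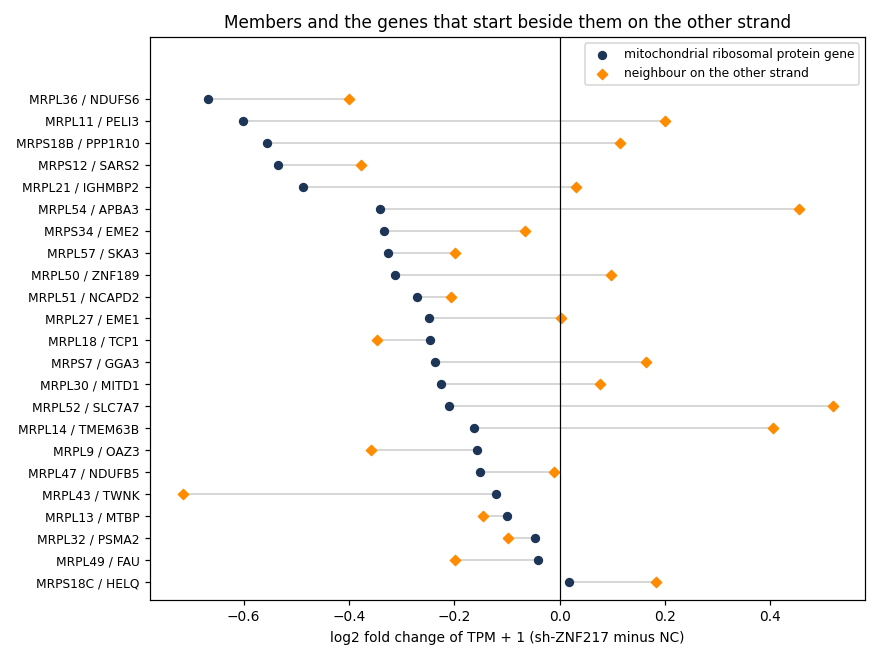
Log2 fold change of TPM + 1 (sh-ZNF217-labelled minus NC) of 23 members (blue circles) and of the gene that starts within 1000 bases on the other strand (orange diamonds), 1 pair per line. The blue circles lie below 0 in all pairs but that of MRPS18C, while 11 of the 23 orange diamonds lie above 0.

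Promoter windows of 300 bases around the RefSeq start were found for 69 of the 78 members and searched on both strands for 4 motifs. A match is a description of letters, not a binding site. ATGGCGGC was present in 19 members (27.5%), against 4.49% of 15843 promoters of protein-coding genes and 3.21% of all 27305 promoters. In 15 of these 19 members, MRPS18B and MRPL46 among them, the matches were the annotated start codon and the bases after it, which held for 21.7% of member promoters and 1.6% of protein-coding ones, and matches elsewhere stood in 4 members (5.8%, against 2.89%). CCGGAAGT was present in 11 members (15.9%, against 6.19% of protein-coding and 4.44% of all promoters), including MRPL16, MRPL20, MRPL27 and MRPS34. GCGCATGCG, the NRF1 motif, was found in 3 members (4.35%, against 2.76% and 2.1%), and CACGTG in 6 (8.7%, against 8.88% and 7.43%), including MRPL36 and MRPL37. Members with and without a motif had median log2 fold changes of -0.25 and -0.25 for both CCGGAAGT and GCGCATGCG. For ATGGCGGC the medians were -0.22 and -0.26, and for CACGTG, with its 6 members, -0.29 and -0.25. These differences were not tested. The promoters of MRPS26, MRPS2 and MRPS12 held none of the 4 motifs, and 33 of the 69 members held at least 1.

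The mitoribosomal proteins that carry other names gave mixed values, with a median of -0.20 (-0.11 without NC replicate 1 and -0.34 without NC replicate 2). Of these 5, CHCHD1 changed, with 80.5 and 71.2 TPM in NC and 55.8 and 43.9 TPM in the sh-ZNF217-labelled libraries (log2 fold change -0.60, SE 0.13, adjusted p = 0.0334), a call that was kept only without sh-ZNF217 replicate 1 when single libraries were left out (adjusted p up to 0.116). AURKAIP1 (-0.31, adjusted p = 0.0825), GADD45GIP1 (-0.20, adjusted p = 0.25) and PTCD3 (-0.12, adjusted p = 0.278) did not pass. DAP3, a GTP-binding protein of the small subunit, had 227 and 269 TPM against 259 and 241 TPM, with overlapping groups (0.02, adjusted p = 0.921).

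The factors that build, program and feed the mitochondrial ribosome were read from the same fit, in which 7.11% of all genes tested passed lower and 2.46% changed lower. Of 27 genes of ribosome assembly and rRNA modification, 5 passed lower, with a median log2 fold change of -0.23. RBFA, which matures the small subunit, changed from 49.7 and 50.4 TPM to 31.9 and 33.2 TPM (-0.61, SE 0.07, adjusted p = 0.00774), and the rRNA methyltransferases TFB1M (-0.41, adjusted p = 0.0271) and MRM2 (-0.33, adjusted p = 0.0398) passed lower. Of 15 genes of mitochondrial transcription and RNA processing, 6 passed lower (median -0.25), led by TRMT10C, a subunit of the tRNA-processing RNase P (-0.40, adjusted p = 0.0181), the helicase SUPV3L1 (-0.38, adjusted p = 0.0294) and LRPPRC, which stabilises mitochondrial mRNAs (-0.28, adjusted p = 0.0303). Of 13 translation factors, TACO1 (-0.35, adjusted p = 0.0353) and TSFM (-0.34, adjusted p = 0.0388) passed lower (median -0.14). Of 21 aminoacyl-tRNA synthetases and related genes, MARS2 passed lower (-0.41, adjusted p = 0.0248), with a median of -0.17. With any 1 library left out, RBFA kept its call in 3 of 4 fits and missed it without sh-ZNF217 replicate 1 (0.0503). TRMT10C and MARS2 kept theirs only without NC replicate 2, and TFB1M, MRM2, SUPV3L1, LRPPRC, TACO1 and TSFM lost theirs in each, with adjusted p from 0.0542 to 0.139. The medians of these 4 lists stayed negative in all 4 fits.

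Both rRNAs and 7 of 13 mRNAs encoded on mitochondrial DNA were higher. The ribosome's own 12S rRNA, MT-RNR1, had 787 and 861 TPM in NC and 1860 and 1880 TPM in the sh-ZNF217-labelled libraries (log2 fold change 1.18, SE 0.06, adjusted p = 0.00103). The 16S rRNA, MT-RNR2, rose from 4670 and 4910 TPM to 8410 and 8250 TPM (0.80, SE 0.04, adjusted p = 0.00126). Summed, the rRNAs were 81.7% higher while the member proteins' transcripts were lower by the amount given above. In NC, MT-RNR1 lay far below the mRNA MT-CO1 (13000 and 14100 TPM). How far the library preparation kept or removed rRNA was not tested, so these values may not follow rRNA abundance in the cells. Of the 13 mitochondrial mRNAs, 7 passed higher, where 9.77% of all genes tested did so. None reached the fold minimum, and the median was 0.25 (0.16 without NC replicate 1). MT-ND3 had 3540 and 3240 TPM in NC against 3460 and 3270 TPM, with overlapping groups and a log2 fold change of -0.01 (adjusted p = 0.925). MT-ND5 (0.47, adjusted p = 0.0161), MT-CO1 (0.35, adjusted p = 0.0115) and MT-CO2 (0.26, adjusted p = 0.0294) were among the 7. The rRNA calls held with any 1 library left out (highest adjusted p 0.0254 and 0.0332), while the mRNAs passing higher numbered 0 without either sh-ZNF217-labelled library, 5 without NC replicate 1 and 11 without NC replicate 2, where 1 also reached the fold minimum. Genes on mitochondrial DNA took 9.98% and 10.8% of all TPM in NC and 12.5% and 12.7% in the other group, and since TPM is a share, a higher share of one group of genes goes with a lower share of the rest. Without these genes in the total, 72 members were below 0 with a median of -0.21, 15 passed lower and 5 changed, MRPS12 not among them. Of all genes tested in that fit, 5.45% passed lower and 1.97% changed lower.

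Other nuclear gene lists were also mostly below 0. Their counts stand against 7.11% of all genes tested that passed lower and 2.46% that changed lower. Of 82 cytosolic ribosomal proteins, 41 passed lower, 5 changed and 79 were below 0, with a median of -0.25, and RPS16 (-0.41, adjusted p = 0.00535), RPL36 (-0.50, adjusted p = 0.00813) and RPL35 (-0.35, adjusted p = 0.00818) had the smallest p. Of 37 complex I subunits, 11 passed lower (median -0.18). The 2 that changed were NDUFA7 (-0.59, adjusted p = 0.0054) and NDUFS7 (-0.50, adjusted p = 0.0147), and NDUFS5 passed short of the fold minimum (-0.46, adjusted p = 0.00534). Without sh-ZNF217 replicate 1 or 2, 3 cytosolic ribosomal proteins passed lower in either fit, 26 without NC replicate 1 and 43 without NC replicate 2. RPL35 lost its call without either sh-ZNF217-labelled library and RPL36 without replicate 2, while RPS16, NDUFS5 and NDUFA7 kept theirs in all 4 such fits. Of complex I, 3, 2, 4 and 14 subunits passed in the same 4 fits, and without NC replicate 2 the changed subunits numbered 6 and the median was -0.27. NDUFS7 lost its call without sh-ZNF217 replicate 2 (0.0637). The members' median was close to that of the cytosolic ribosome, and no difference between these lists was tested.

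**Figure D5:**
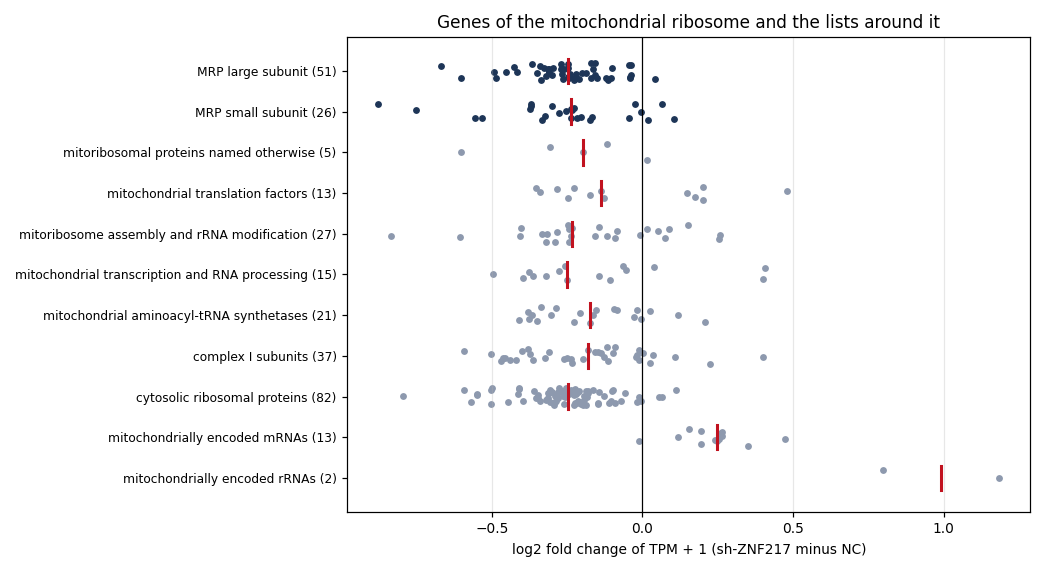
Log2 fold change of TPM + 1 (sh-ZNF217-labelled minus NC) of each gene in 11 lists, with the number of genes in brackets and the median as a red bar, and vertical scatter only for display. Medians of the nuclear lists lie between -0.25 and -0.14, and those of the mitochondrially encoded mRNAs and rRNAs at 0.25 and 0.99.

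Among 8 tested regulators of nuclear genes for mitochondrial proteins, 2 changed, both lower, where 2.46% of all genes tested changed lower. MYC, a transcription factor of growth and ribosome genes, had 158 and 150 TPM in NC and 80 and 88.2 TPM in the sh-ZNF217-labelled libraries (log2 fold change -0.87, SE 0.07, adjusted p = 0.00339). GABPB1, the partner of the ETS factor GABPA, had 34.7 and 28.4 TPM against 18.2 and 18.1 TPM (-0.76, SE 0.12, adjusted p = 0.0148). GABPA (0.12, adjusted p = 0.377), NRF1 (0.02, adjusted p = 0.93) and YY1 (-0.18, adjusted p = 0.137) did not pass, and PPARGC1A was below the filter on low values. MYB, the gene at the centre of the study, had 219 and 239 TPM against 149 and 146 TPM (-0.63, SE 0.06, adjusted p = 0.00534). MYC and MYB kept their calls with any 1 library left out, and GABPB1 lost its call without either sh-ZNF217-labelled library (highest adjusted p 0.0734). Whether any of these bears on the members was not tested.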

How the data were processed

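Per the labels, U937 total RNA was isolated with Trizol, and an Illumina TruSeq kit was used for the libraries. According to the submitters' processing notes and the study's methods, the authors aligned filtered reads with HISAT2 (version 2.0.5) to hg38. Quantifier, annotation release, strand setting and depth were not given in the sources used here. FPM is the measure the authors name, with DESeq2 for their calls, but the values they deposited behave as TPM (totals of 998932 to 999282, no common step among low values) and were treated as such. Column names held NC or ZNF with a replicate number, which gave each column its sample.

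A gene was tested if 2 or more libraries had at least 1 TPM (14582 genes). Values were transformed to log2(TPM + 1), a scale that understates changes of low genes, and the group difference was estimated in limma 3.58.1 under R 4.3.3 (trended and robust empirical Bayes, group alone), with Benjamini-Hochberg adjustment over all 14582 genes. GENCODE 44 on the same build gave symbols for 16143 genes, positions, overlaps and exonic GC content, and RefSeq (GRCh38.p14) gave promoters. On simulated data of 14582 genes, recovery was 59 of 100 genes at a true log2 difference of 1 and 90 of 100 at 2, with 7 false calls. Noise was drawn independently for each gene. No smaller difference was simulated, so recovery at the size of the members' differences is not known from it. Figures were drawn with matplotlib 3.10.9.

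Members and lists were chosen with earlier results of these data known. Named members were all that changed, the 12 of smallest p among those passing lower, the 4 of highest and 4 of lowest level, the MRPS18 paralogs, the extreme log2 fold changes, up to 5 of those whose sign turned under an alternative, and in other lists the 3 of smallest p. Further names (MRPL1, MRPL10, MRPL15, MRPL27, MRPL42, MRPL46, MRPL58, MRPS11, MRPS27, MRPS28, MRPS31, MRPS36, NDUFS7, MT-ND3 and neighbours on the other strand) were given to fill out counts and were chosen after their values were seen. Alternatives were other pseudocounts, filters and scalings, a GC and length correction, plain empirical Bayes, a replicate block and each library left out.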

Additional observations from a re-analysis of the deposited data

How the results depend on the processing

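The lower direction of the members held in all 14 alternative fits, with 69 to 76 members below 0, and the number passing higher stayed at 0 in each of these limma fits. The filters, plain empirical Bayes and the replicate block leave each log2 fold change unchanged, so those fits could not turn the direction. Other pseudocounts hardly moved the median (-0.2486 and -0.247). The median log2 fold change of the members was -0.28 under median-of-ratios scaling and -0.21 without mitochondrially encoded genes, and the summed TPM changed by -18.0% and -14.0%. Plain empirical Bayes called 2 members changed, the same 2 at the adjusted p alone, and 723 instead of 1272 genes in all. By either rule 1.12% of all genes were called lower in that fit. Leaving out 1 library gave 3 to 6 changed members, 3 to 18 passing lower, 430 to 1029 changed genes, a median of -0.25 to -0.22 and a summed TPM change of -17.3% to -15.0%. The lowest of these counts came from leaving out a sh-ZNF217-labelled library (439 changed genes without replicate 1, 430 without replicate 2), each of which leaves that group with 1 library assumed to vary like NC. Of all genes that changed, 71.8% were higher, against 64.9% under median-of-ratios scaling and 78% without mitochondrially encoded genes.

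With 1 library left out MRPS18A ranged from -0.2619 to 0.0319, above 0 without NC replicate 2, and MRPS18C from -0.0575 to 0.0937, below 0 without NC replicate 1 or sh-ZNF217 replicate 2. MRPS18C was also below 0 under median-of-ratios scaling (-0.0146) and the GC and length correction (-0.0888). The cause was not tested. ZNF217 missed the threshold in every fit. Other pseudocounts kept all 19 members that passed lower, no filter kept 17, a minimum of 5 TPM gave 27, median-of-ratios scaling 27 and protein-coding genes alone 28, each of these 3 with the 19 among them. The share of all genes passing lower moved as well, from 7.11% to 5.06% without a filter, 11.1% at 5 TPM, 8.92% under median-of-ratios scaling and 11.4% for protein-coding genes alone.

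With a replicate block, 5 members changed (MRPS18B had an adjusted p of 0.0564), 13 passed lower, 12 of them among the 19, and 1049 genes changed in all. Of all genes, 2.06% changed lower and 4.77% passed lower in this fit. The libraries share only a number, since no label ties equal numbers to a common culture and the deviations of the replicate 1 libraries from their group means did not go together over genes (r = -0.00534 over 14582 genes). Depth limits all values to an unknown degree, because TPM keeps none.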
